A study of Mus musculus with 8 samples.

Results

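The neurotransmitter receptor subunit genes are here the genes of the expression table whose symbol begins with Gabra, Gabrb, Gabrg, Gabrr, Glra, Gria, Grid, Grik, Grin, Grm, Chrna, Chrnb or Htr and ends in a number with at most 1 letter after it. The rule uses names and no measured value, and 72 of the 24421 genes of the table met it. It was, however, set with earlier results of these data known, so the counts below are no independent test. They encode 15 GABA-A receptor subunits, 4 glycine receptor alpha subunits, 4 AMPA, 5 kainate, 7 NMDA and 2 delta receptor subunits, 8 metabotropic glutamate receptors, 13 nicotinic acetylcholine receptor subunits and 14 serotonin receptors. Hira encodes a chaperone that loads the histone variant H3.3 onto DNA independently of replication, and the study sequenced messenger RNA of Hira-null and wild type (WT) mouse embryonic stem cells (mESCs), before and after differentiation towards heart muscle. The Hira-null cells were Clone 104, so this genotype rests on 1 clone, and the WT cells were the W9.5 line. In both lines histone H3.3 carried an HA tag. Cells at day 0 were undifferentiated, and cultures at day 15 had been grown from hanging drops and held beating foci. The groups were Hira-null at day 15, WT at day 15, Hira-null at day 0 and WT at day 0, with 2 libraries from different biological samples in each and 8 in all.

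Ionotropic receptors are ion channels built from several subunits and opened by a transmitter, whereas metabotropic receptors signal through G proteins. GABA-A and glycine receptors conduct chloride and mostly inhibit mature neurons, and AMPA, kainate and NMDA receptors carry most fast excitation by glutamate. Nicotinic receptors respond to acetylcholine in brain, autonomic ganglia and muscle, and of the serotonin receptors only the Htr3 type is a channel. The subunits present in a cell set the kinetics, ion selectivity and drug response of its receptors, and many are exchanged as neurons mature.

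Levels are given as FPKM, fragments counted per gene and scaled to gene length and library size, as the authors deposited them. All positive values were whole multiples of the value of 1 fragment (100% within 0.1 of a fragment), which gave 6897009 to 11088835 fragments in genes per library, and intervals from such counts would cover counting error only. Hira was at 16.7 and 19.8 FPKM in libraries labelled Hira-null, against 15.8 and 15.5 FPKM in WT, at day 15 (log2 fold change of 0.20 with a standard error of 0.11, adjusted p = 0.167), so the day 15 label was not matched by a lower Hira level. In stem cells at day 0 it was at 12.4 and 11.4 FPKM in Hira-null, against 27.3 and 28.5 FPKM in WT (log2 fold change of −1.17 with a standard error of 0.10, adjusted p = 8.48e-05). The sources used here do not give the deleted part of Hira, and an FPKM per gene counts fragments of every exon, so transcript outside that part cannot be told apart from an intact one. Directions at day 15 below refer to libraries by their label. Cardiomyocyte markers stood at a summed 138 and 148 FPKM in libraries labelled Hira-null, against 207 and 203 FPKM in WT at day 15, and summed stem cell markers at 534 and 527 FPKM, against 421 and 385 FPKM in WT. These sums do not stand for each marker. Of the 6 stem cell markers, 3 passed the test above WT and 3 passed it below WT. For the 12 cardiomyocyte markers these numbers were 2 and 4. The stem cell gene Pou5f1 was still at 139 and 149.5 FPKM in libraries labelled Hira-null, against 86.2 and 77.8 FPKM in WT, at day 15. Nanog, another stem cell gene, had the opposite order, with 21.4 and 22.5 FPKM, against 35.1 and 33.5 FPKM in WT. In bulk samples more cells of a type and more RNA per cell cannot be told apart.

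Of the 72 genes, 27 reached FPKM 1 in at least 2 libraries and were compared on log2(FPKM + 1) with limma among 14337 such genes, a scale on which the change of low genes is understated. The remaining 45 lay under that filter. Grm2 and Grin2b entered with a second-highest library of 1.03 and 1.06 FPKM, and Grin2c fell short at 0.911 FPKM. A gene high in a single group passes this filter, so counts over the 27 do not stand for all 72. At least 1 fragment was found for 56 and 58 of the 72 genes in libraries labelled Hira-null at day 15, against 53 and 59 in WT. At day 0 these numbers were 41 and 37 in Hira-null, against 38 in each WT library. Such a count depends on depth, and the deepest library was replicate 2 of WT at day 15, with 11088835 fragments in genes. Replicate 1 of Hira-null at day 0 had the fewest, 6897009. The share of all genes with a fragment was not taken, so these counts describe detection only. The FPKM of all 72 summed to 127 and 129.5 in libraries labelled Hira-null, against 78.8 and 78.1 in WT, at day 15. At day 0 the sums were 60.1 and 58.01 in Hira-null, against 38.9 and 37.6 in WT. The 2 libraries of each group stood close together in this sum, and no groups overlapped. Grik5 alone was at 31.6 and 36.7 FPKM in libraries labelled Hira-null, against 26.1 and 25.4 FPKM in WT, at day 15. The sum therefore does not stand for each gene. With 2 libraries a group, a lack of overlap is weak evidence by itself, here and below.

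At day 15, 14 of the 27 genes were above WT in libraries labelled Hira-null, 2 were below it and 11 did not pass the test, where 18.6% of all genes tested were higher and 18.8% lower. Among the 14 were Gabra2 and Gabrb2 of the GABA-A receptor, Gria2, Grik1, Grik2, Grik3, Grik5, Grin2b, Grin3a, Grid1 and Grm4 of the glutamate receptors, and the nicotinic Chrna4 and Chrnb1. The 2 lower genes were Gabra3 and Gria1. The median log2 fold change was 0.55 over the 27 genes and 0.011 over all genes tested. Leaving out 1 library at a time with all 27 genes kept in the test, the number above WT was 12 and 10 without replicates 1 and 2 of libraries labelled Hira-null, and 9 and 7 without replicates 1 and 2 of WT at day 15. Of all genes, 16.7%, 15%, 9.23% and 8.8% were then higher. With the filter applied again, 8 and 5 of the 22 genes left were above WT without replicates 1 and 2 of libraries labelled Hira-null, beside 15.7% and 14% of all genes. The number below WT was 1 without replicate 1 of libraries labelled Hira-null and 1 without either WT library of day 15 (0 with the filter applied again). The calls of Gabra2, Gabra3, Gabrb2, Grik1, Grik2 and Grin3a held under every alternative in which they were tested. With the filter applied again, Gabra2, Grik1 and Grin3a were not tested without a library labelled Hira-null of day 15. Gabra3 was likewise not tested without a WT library of day 15. Those fits could not end their calls. Below, the library whose removal ended a call, or the setting that did, is named with the adjusted p then reached in brackets. For a removed library the value is from the fit that kept all 27 genes. Where only the fit with the filter applied again ended the call, the value is from that fit. The settings named below were a pseudocount of 0.1, no filter, median-ratio rescaling, and voom on whole fragments with or without the filter. A replicate block, a term for the replicate number, is covered here only. It ended the calls of Chrnb1 (0.0839), Gria1 (0.05525) and Grik5 (0.0532) between genotypes at day 15. It also ended those of Gria3 between genotypes at day 0 (0.0522) and of Grik4 with time in WT (0.0549).

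At day 0, 7 of the 27 were above WT in Hira-null cells, 1 was below it and 19 did not pass the test, where 20.8% of all genes tested were higher and 19.4% lower. The higher genes were Chrnb1, Chrnb4, Gria3, Grik4, Grik5, Grin1 and Grm2, and the lower gene was the nicotinic Chrna9. The median log2 fold change over the 27 was 0.091, and 0.12 with genes at 0 in a whole group set to their bound, beside 0.013 over all genes tested. Without replicate 1 or 2 of Hira-null at day 0 the number of higher genes was 4 in each case, where 13% and 13.8% of all genes were higher. With the filter applied again it was 3 of 25 genes in each case, beside 12.8% and 13.4% of all genes. These shares lie near those of all genes. Without replicate 2 of Hira-null at day 0 no gene was lower.

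**Figure D1:**
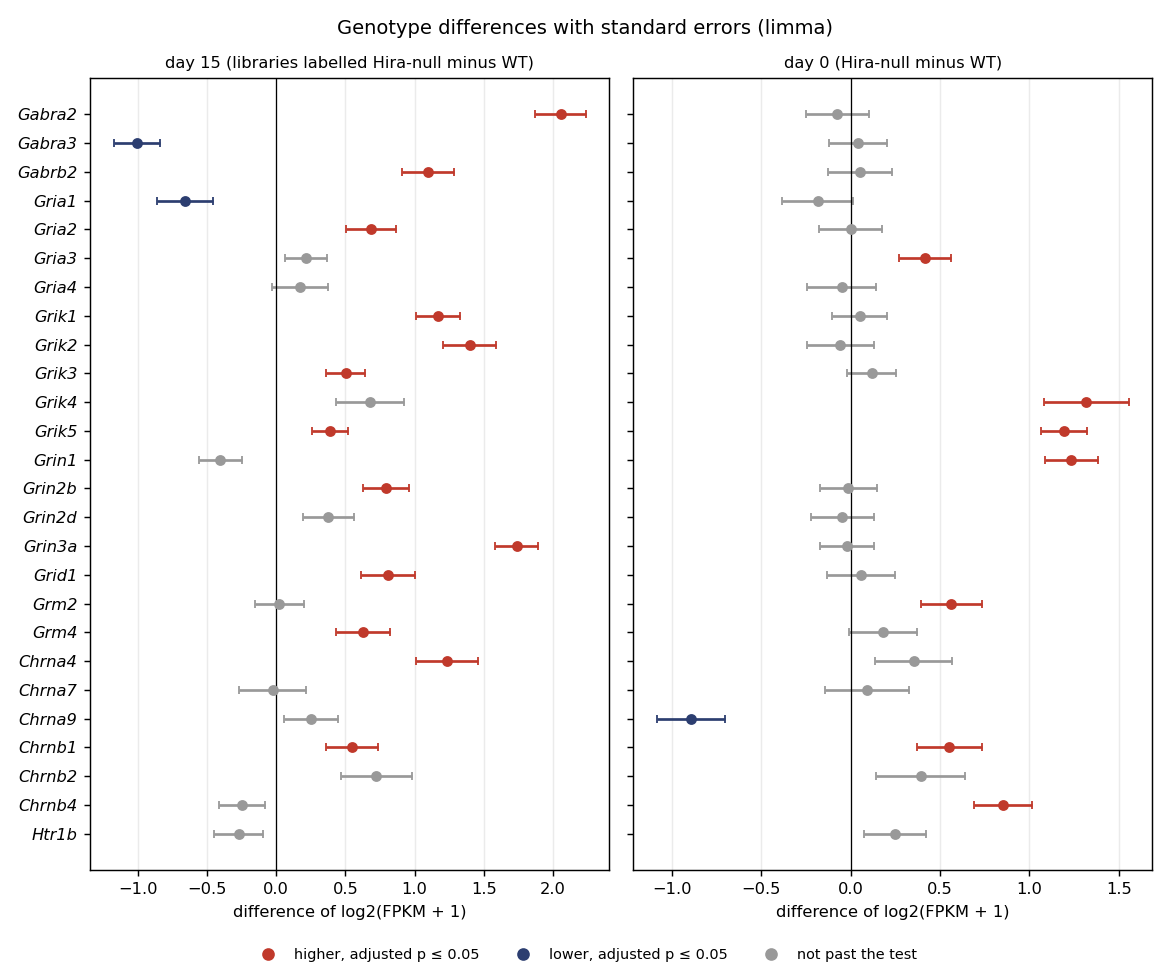
Difference of log2(FPKM + 1) between genotypes for 26 of the 27 genes tested, libraries labelled Hira-null minus WT at day 15 on the left and Hira-null minus WT at day 0 on the right, with points for the estimate and bars for its standard error (limma, 2 libraries a group). At day 15 the points past the test lie mostly to the right, from 0.39 for Grik5 to 2.06 for Gabra2, with Gria1 and Gabra3 to the left, and at day 0 the largest differences are those of Grik4, Grin1 and Grik5.

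The days were then compared within each line. Set against Hira-null at day 0, 18 of the 27 had risen and 5 had fallen in libraries labelled Hira-null at day 15, where 37.5% of all genes tested were higher and 36.4% lower. In WT 14 were higher at day 15 and 3 lower, where the shares of all genes were 36.1% and 33.4%. The 5 lower genes were Chrna9, Chrnb4, Grik3, Grin1 and Grm2, and the 3 in WT were Chrna9, Grik3 and Grin1. With the filter applied again, the 5 became 2 and 3 of 25 genes without replicates 1 and 2 of Hira-null at day 0, where Chrnb4 and Grm2 were no longer tested and 32.5% and 32.5% of all genes were lower. The median log2 fold change over the 27 was 0.90 in the Hira-null line and 0.58 in WT (0.62 with bounds), beside 0.013 and 0.034 over all genes. These comparisons share libraries with those between genotypes and are given side by side only.

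**Figure D2:**
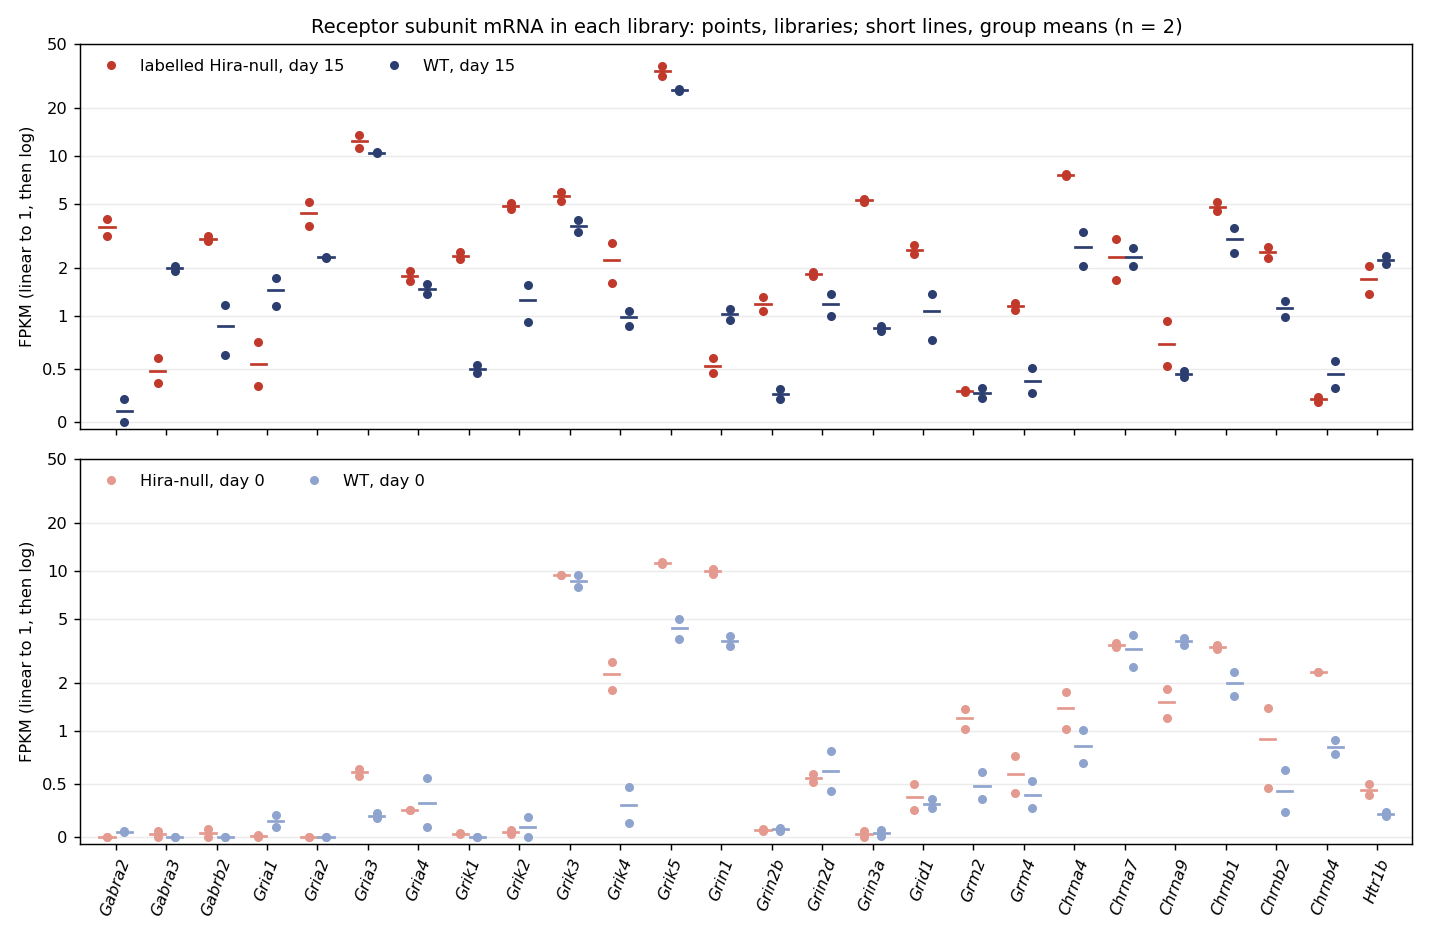
FPKM of 26 of the 27 genes tested in each library at day 15 (top) and day 0 (bottom), on an axis that is linear to 1 and logarithmic above, with points for libraries and short lines for group means (n = 2). Gria2, Gabra2, Gabrb2, Grik1, Grik2 and Grin3a lie at or near 0 at day 0, while Grin1 lies between 3.39 and 10.3 FPKM at day 0 and at 1.09 FPKM or less at day 15.

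The GABA-A receptor is usually built from alpha, beta and gamma subunits, and the alpha subunit sets where the channel sits and how it responds to benzodiazepines. Its alpha subunits showed an exchange between the day 15 groups. Gabra2, common in the developing forebrain, was at 4.04 and 3.16 FPKM in libraries labelled Hira-null, against 0 and 0.214 FPKM in WT, or 86 and 72 fragments against 0 and 6 (log2 fold change of 2.06 with a standard error of 0.18, adjusted p = 1.02e-04). Gabra3, another alpha subunit of embryonic brain, was at 0.602 and 0.366 FPKM in libraries labelled Hira-null, against 1.91 and 2.04 FPKM in WT (log2 fold change of −1.01 with a standard error of 0.17, adjusted p = 0.001996). The groups did not overlap for either gene, and the order was opposite. Both alpha genes were nearly absent at day 0, where Gabra2 had 0 fragments in Hira-null and 1 in each WT library, and Gabra3 had 0 and 2 in Hira-null and 0 in WT. A value of 0 leaves room for up to 3 fragments, and against that floor over the day 0 group Gabra2 was at least 44.7-fold higher at day 15 in the Hira-null line. Gabra3 was at least 38.9-fold higher in WT. In the Hira-null line Gabra3 was also higher at day 15 than at day 0 (log2 fold change of 0.52 with a standard error of 0.16, adjusted p = 0.0177), a call lost without labelled Hira-null replicate 1 of day 15 (0.0721), Hira-null replicate 1 of day 0 (0.0849) or Hira-null replicate 2 of day 0 (0.0538). For Gabra2 no difference between days was detected in WT (log2 fold change of 0.065 with a standard error of 0.18, adjusted p = 0.759).

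A fit without the filter tested 18142 genes and 62 of the receptor genes, and called 14.9% of all genes higher and 14.6% lower at day 15. Of the 35 receptor genes under the filter that it tested, 6 were higher and 3 lower. Gabra4, an alpha subunit found outside synapses, lay under the filter at 0.708 and 0.433 FPKM in libraries labelled Hira-null, against 0.3604 and 0.931 FPKM in WT, and the groups overlapped. Gabra5, known from hippocampus, reached 0.378 FPKM at most, and Gabra6, the cerebellar granule cell form, was listed at 0 in all 8 libraries. Of the summed FPKM of these 5 alpha genes, Gabra2 to Gabra6, at day 15, Gabra2 took 70.5 and 76.8% in libraries labelled Hira-null, against 0 and 6.17% in WT, and Gabra3 took 10.5 and 8.896%, against 82.7 and 58.7% in WT. Of the 5, the leading transcript was therefore Gabra2 in both libraries labelled Hira-null and Gabra3 in both WT libraries. These are shares of transcript levels per gene length, and the subunit protein was not measured.

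**Figure D3:**
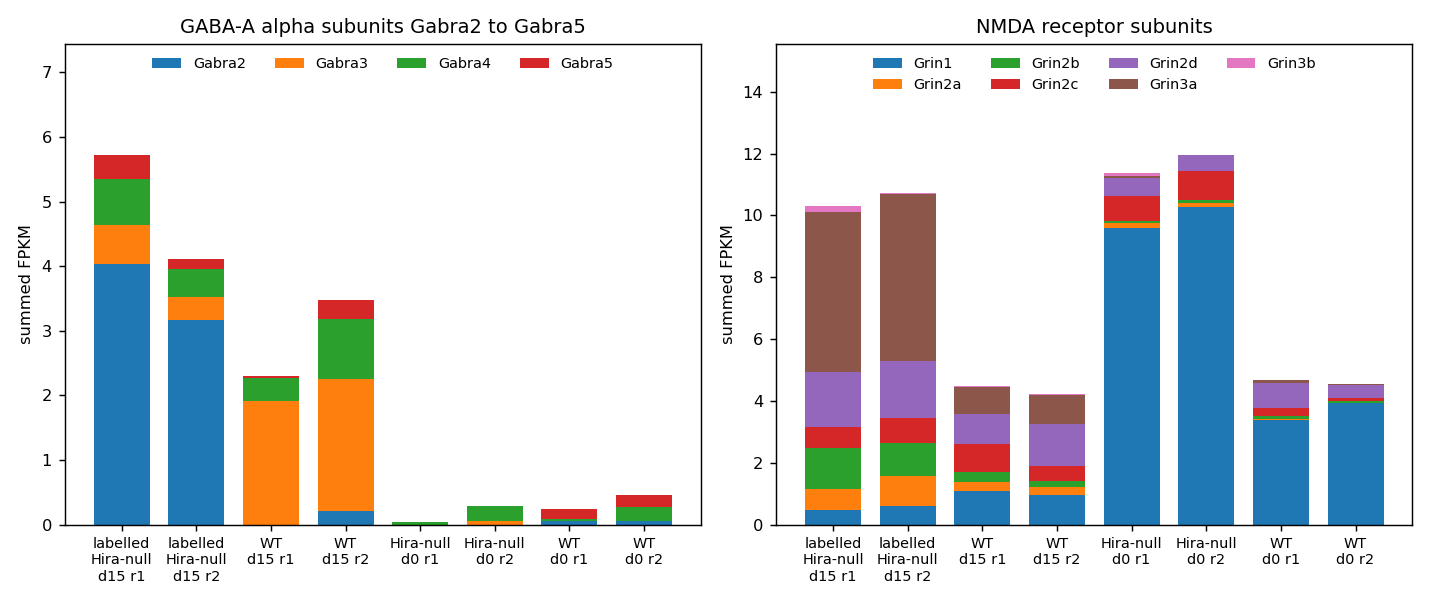
Summed FPKM of the GABA-A alpha genes Gabra2 to Gabra5 (left) and of the NMDA receptor genes (right) in each library, with colours for genes. At day 15 the largest alpha segment is Gabra2 in libraries labelled Hira-null and Gabra3 in WT, and the largest NMDA segment is Grin3a at 5.17 and 5.37 FPKM in libraries labelled Hira-null, while Grin1 makes up most of the column at day 0.

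The promoter windows of the 2 exchanged alpha genes are shown because they differ in CG content. RefSeq (GRCm38.p6) holds windows of 300 bases, 250 before and 50 after the annotated start, for 51 of the 72 genes (61 windows), and CG dinucleotides are in capitals. The Gabra2 window is chr5:71095800-71096099 and the upstream one of the overlapping Gabra3 windows is chrX:72656870-72657169, both on the minus strand and written 5′ to 3′.
Gabra2: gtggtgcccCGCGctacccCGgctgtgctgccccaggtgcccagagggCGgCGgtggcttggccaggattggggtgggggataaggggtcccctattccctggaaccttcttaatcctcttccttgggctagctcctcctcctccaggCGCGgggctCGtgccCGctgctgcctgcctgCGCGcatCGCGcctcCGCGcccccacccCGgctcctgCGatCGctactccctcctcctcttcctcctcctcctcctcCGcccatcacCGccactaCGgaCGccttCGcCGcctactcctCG
Gabra3: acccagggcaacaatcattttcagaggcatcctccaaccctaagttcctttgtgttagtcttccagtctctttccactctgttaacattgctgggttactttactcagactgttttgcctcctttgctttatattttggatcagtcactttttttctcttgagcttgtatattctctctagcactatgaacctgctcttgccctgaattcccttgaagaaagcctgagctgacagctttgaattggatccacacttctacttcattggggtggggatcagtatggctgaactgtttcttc
The Gabra2 window held 25 CG dinucleotides and the letters GGGCGG, searched on both strands, and the Gabra3 window held 0 CG and no such match. The median was 11 CG over the 61 windows of members and 7 over all 32851 windows, of which 5.43% held no CG and 35.7% held GGGCGG. A match is a description of letters and not a site.

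Beta subunits are required for assembly and for binding GABA at the interface with alpha. Gabrb2 was at 2.91 and 3.13 FPKM in libraries labelled Hira-null, against 0.633 and 1.16 FPKM in WT, at day 15 (log2 fold change of 1.10 with a standard error of 0.19, adjusted p = 0.00215). It had 4 and 0 fragments in Hira-null and none in WT at day 0, so that its day 15 level in WT was at least 36.9-fold higher. Gabrb1 lay under the filter with 0.121 and 0.339 FPKM in libraries labelled Hira-null, against 0.171 and 0.367 FPKM in WT, at day 15, and was at 0 at day 0. Gabrb2 stood above Gabrb1 in all 4 libraries of day 15.

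Gamma subunits anchor the receptor at synapses. Gabrg3 reached 0.440 FPKM in its highest library and 0 in 3 of the 4 day 0 libraries, and Gabrg1 stayed at 0.132 FPKM or less. The rho subunits form receptors of their own in retina. Gabrr1 was at 0 in both libraries labelled Hira-null, against 0.142 and 0 FPKM in WT, at day 15. At day 0 it was at 0.129 and 0.253 FPKM in Hira-null, against 0.302 and 0.368 FPKM in WT. Gabrr2 reached 0.231 FPKM and Gabrr3 was listed at 0 throughout.

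Many receptor genes lie in clusters of neighbours, which allows the members of a cluster to be compared. On NCBIM37, the mm9 build, Gabrg1, Gabra2, Gabra4 and Gabrb1 lie on chromosome 5 between 71142286 and 72529628. Within this cluster only Gabra2 reached FPKM 1 in any library, and Gabrg1, Gabra4 and Gabrb1 had overlapping groups. The nicotinic genes Chrna5, Chrna3 and Chrnb4 lie on chromosome 9 between 54828687 and 54896351. At day 15 the groups overlapped for Chrna5 and Chrna3 and not for Chrnb4, whose difference did not pass the test.

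**Figure D4:**
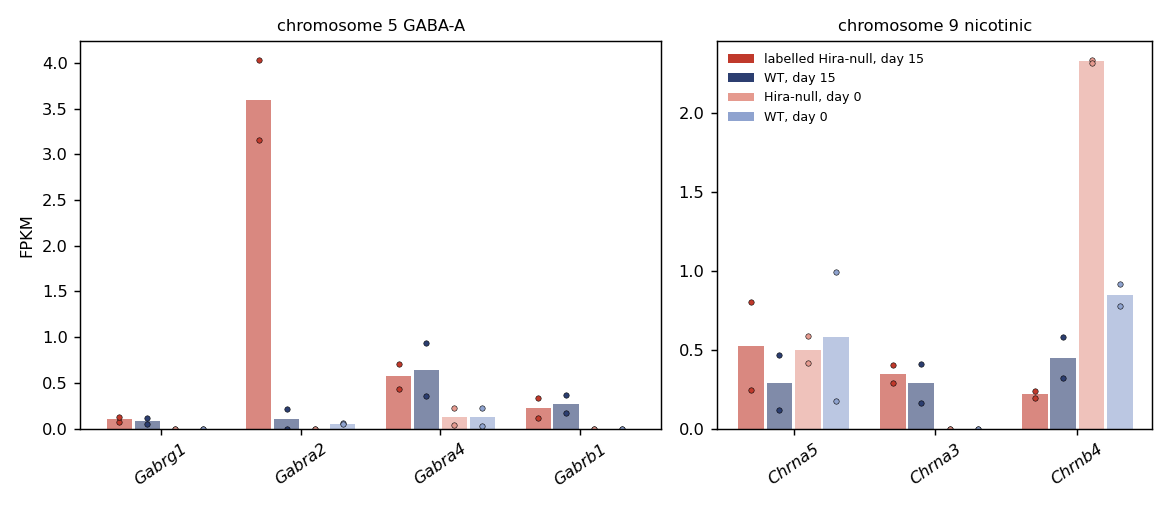
FPKM of receptor genes in the GABA-A cluster of chromosome 5 (left) and the nicotinic cluster of chromosome 9 (right), in chromosomal order, with bars for group means and points for the 2 libraries of each group. In the GABA-A cluster Gabra2 stands out at day 15, at 4.04 and 3.16 FPKM in libraries labelled Hira-null. Among the nicotinic genes Chrnb4 is highest in Hira-null at day 0, at 2.34 and 2.32 FPKM.

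Glycine receptors are formed by alpha subunits with or without the beta subunit, and Glra2 is the embryonic and Glra1 the adult spinal form. Neither had a fragment at day 0. Glra2 was at 0.451 and 0.729 FPKM in libraries labelled Hira-null, against 0.0388 and 0.125 FPKM in WT, at day 15 (without the filter, log2 fold change of 0.55 with a standard error of 0.11, adjusted p = 0.00812). Glra1 went the other way, with 0.279 and 0.0871 FPKM in libraries labelled Hira-null, against 0.528 and 1.59 FPKM in WT, where its second WT library stood well above the first (without the filter, log2 fold change of −0.75 with a standard error of 0.22, adjusted p = 0.0402). Exons of Glra1 overlap Gm12236 on the other strand, and the sources used here do not state whether counting used the strand. Glra3 and Glra4 were listed at 0 in every library. Glrb, the beta subunit outside the naming rule, was at 4.71 and 3.16 FPKM in libraries labelled Hira-null, against 4.801 and 5.21 FPKM in WT, at day 15. The levels at day 0 were 1.11 and 0.902 FPKM in Hira-null, against 1.35 and 1.25 FPKM in WT.

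AMPA receptors give the fast part of excitatory transmission, and their GluA2 subunit, encoded by Gria2, keeps calcium out of the channel. All 4 AMPA genes rose between day 0 and day 15 in both lines. Gria3 was the most abundant, with 13.5 and 11.2 FPKM in libraries labelled Hira-null, against 10.3 and 10.5 FPKM in WT, at day 15. Day 0 levels were 0.575 and 0.642 FPKM in Hira-null, against 0.2298 and 0.178 FPKM in WT. Its day 15 over day 0 log2 fold change was 3.05 in the Hira-null line (adjusted p = 2.66e-07) and 3.25 in WT (adjusted p = 3.10e-07). Gria2 had no fragment in any day 0 library and 5.14 and 3.63 FPKM in libraries labelled Hira-null, against 2.301 and 2.34 FPKM in WT, at day 15. With 623 and 380 fragments at day 15 it was at least 176-fold higher than at day 0 in the Hira-null line and at least 94.7-fold higher in WT. Gria4 was at 1.897 and 1.66 FPKM in libraries labelled Hira-null, against 1.36 and 1.57 FPKM in WT, at day 15. In undifferentiated cells the levels were 0.2603 and 0.259 FPKM in Hira-null, against 0.552 and 0.0962 FPKM in WT. Gria1 was at 0.338 and 0.756 FPKM in libraries labelled Hira-null, against 1.72 and 1.16 FPKM in WT, at day 15. Its day 0 levels were 0.0244 and 0 FPKM in Hira-null, against 0.205 and 0.09899 FPKM in WT. That difference did not pass the test (adjusted p = 0.496) but did with voom (0.0312), where Gria1 was lower in Hira-null. Its rise with time in the Hira-null line (log2 fold change of 0.60 with adjusted p = 0.0222) was lost without labelled Hira-null replicate 2 of day 15 (0.121), Hira-null replicate 1 of day 0 (0.0725) or Hira-null replicate 2 of day 0 (0.0861).

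Between genotypes at day 15 the AMPA genes split. Gria2 was above WT (log2 fold change of 0.69 with a standard error of 0.18, adjusted p = 0.0167), and the call was lost without labelled Hira-null replicate 1 of day 15 (0.0678), WT replicate 1 of day 15 (0.0889) or WT replicate 2 of day 15 (0.0847), and with a pseudocount of 0.1 (0.122). Gria1 was lower (log2 fold change of −0.66 with a standard error of 0.20, adjusted p = 0.0312), and was not past the test without labelled Hira-null replicate 1 of day 15 (0.125), WT replicate 1 of day 15 (0.182) or WT replicate 2 of day 15 (0.0509), and with a pseudocount of 0.1 (0.0917). Gria3 and Gria4 differed by 0.21 and 0.17 on the log2 scale, which did not pass the test (adjusted p = 0.297 and 0.536). Gria2 made up 24.7 and 21.1% of summed AMPA FPKM in libraries labelled Hira-null, against 14.6 and 14.97% in WT, and Gria3 64.6 and 64.9%, against 65.7 and 67.6% in WT. At day 0 Gria3 was higher in Hira-null (log2 fold change of 0.42 with a standard error of 0.15, adjusted p = 0.0484), a call lost without the filter (0.0687) and whichever of the 8 libraries was left out, with adjusted p from 0.0573 to 0.174. In the annotation Gria2, Gria3 and Gria4 each share exon sequence with a transcript model on the same strand, so their values are uncertain to that extent.

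The promoter window of Gria2, at chr3:80802786-80803085 of GRCm38.p6 on the minus strand, is shown because the gene had no fragment at day 0 and because the window holds the core letters of the RE1 element, the binding site of REST, a repressor of neuronal genes outside neurons. CG dinucleotides are in capitals.
Gria2: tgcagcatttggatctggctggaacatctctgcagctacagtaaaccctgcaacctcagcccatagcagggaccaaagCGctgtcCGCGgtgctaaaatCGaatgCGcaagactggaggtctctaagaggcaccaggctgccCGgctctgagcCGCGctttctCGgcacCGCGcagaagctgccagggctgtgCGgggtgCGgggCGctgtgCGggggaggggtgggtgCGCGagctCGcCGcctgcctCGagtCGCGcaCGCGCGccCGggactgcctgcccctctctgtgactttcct
The letters searched, on both strands, were GCACC and GGACAG spaced by 2 bases of any kind. Of all 32851 windows 0.0944% held them, as did 3.28% of the 61 windows of members, those of Gria2 and Htr5a. The window held 26 CG dinucleotides. Htr5a, the other gene with a match, was at 0 and 0.0188 FPKM in libraries labelled Hira-null, against 0 and 0.0459 FPKM in WT, at day 15. The levels at day 0 were 0.339 and 0.184 FPKM in Hira-null, against 0 and 0.0849 FPKM in WT. In the Hira-null line Gria2 was higher and Htr5a, in the fit without the filter, lower at day 15 (log2 fold change of −0.32 with a standard error of 0.095, adjusted p = 0.0199).

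Kainate receptors modulate release and excitability. GluK1 to GluK3, encoded by Grik1, Grik2 and Grik3, form channels by themselves, and GluK4 and GluK5, encoded by Grik4 and Grik5, bind glutamate tightly but need one of them. Grik5 was the most abundant of all 72 genes at day 15, with 31.6 and 36.7 FPKM in libraries labelled Hira-null, against 26.1 and 25.4 FPKM in WT (log2 fold change of 0.39 with a standard error of 0.13, adjusted p = 0.0458). This call was lost without labelled Hira-null replicate 2 of day 15 (0.189), WT replicate 1 of day 15 (0.198), WT replicate 2 of day 15 (0.234), Hira-null replicate 1 of day 0 (0.0556) or Hira-null replicate 2 of day 0 (0.0558), and with a pseudocount of 0.1 (0.0571) or without the filter (0.0621). At day 0 Grik5 was at 11 and 11.4 FPKM in Hira-null, against 3.75 and 4.97 FPKM in WT, a larger difference (log2 fold change of 1.19 with a standard error of 0.13, adjusted p = 2.01e-04) that held without each library in turn. The gene rose with time in both lines, by 1.52 on the log2 scale in the Hira-null line (adjusted p = 6.79e-06) and 2.33 in WT (adjusted p = 8.60e-07).

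The channel-forming genes Grik1 and Grik2 were almost silent at day 0, at 0.194 FPKM or less in every library. At day 15 Grik2 was at 4.65 and 5.09 FPKM in libraries labelled Hira-null, against 0.937 and 1.56 FPKM in WT (log2 fold change of 1.40 with a standard error of 0.19, adjusted p = 8.03e-04). Grik1 was at 2.48 and 2.27 FPKM in libraries labelled Hira-null, against 0.464 and 0.536 FPKM in WT (log2 fold change of 1.17 with a standard error of 0.16, adjusted p = 7.16e-04). For both genes the groups did not overlap, and in WT both also rose with time. Grik1 in WT was at least 9.72-fold higher at day 15, and its test in WT (log2 fold change of 0.58 with adjusted p = 0.00847) was lost without WT replicate 2 of day 15 (0.0525). Grik1 and Grik2 together took 15.7 and 13.9% of summed kainate FPKM in libraries labelled Hira-null, against 4.395 and 6.46% in WT, at day 15.

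Grik3 ran against the other channel-forming genes with time. It was at 5.23 and 5.93 FPKM in libraries labelled Hira-null, against 3.33 and 3.98 FPKM in WT, at day 15. Day 0 levels were 9.47 and 9.41 FPKM in Hira-null, against 7.91 and 9.36 FPKM in WT. It was lower at day 15 in the Hira-null line (log2 fold change of −0.67 with adjusted p = 0.00204) and in WT (log2 fold change of −1.05 with adjusted p = 1.50e-04). Between genotypes at day 15 it was above WT (log2 fold change of 0.50 with a standard error of 0.14, adjusted p = 0.0225), a call lost without labelled Hira-null replicate 2 of day 15 (0.0957), WT replicate 1 of day 15 (0.187) or WT replicate 2 of day 15 (0.0721). Grik4 was at 1.61 and 2.86 FPKM in libraries labelled Hira-null, against 1.07 and 0.905 FPKM in WT at day 15 (log2 fold change of 0.68 with a standard error of 0.25, adjusted p = 0.0575), which did not pass the test here but did with voom (0.0271). In stem cells at day 0 it was at 1.795 and 2.71 FPKM in Hira-null, against 0.467 and 0.136 FPKM in WT, the largest genotype difference of that day among the 27 genes tested (log2 fold change of 1.32 with a standard error of 0.24, adjusted p = 0.00264). Its rise with time in WT (log2 fold change of 0.62 with adjusted p = 0.0452) was lost without WT replicate 1 of day 15 (0.188), WT replicate 2 of day 15 (0.123) or WT replicate 2 of day 0 (0.201), and without the filter (0.0613). Grik4 and Grik5, the subunits that need a partner, were higher in Hira-null at day 0 under every alternative run, and Grik1, Grik2 and Grik3 did not pass the test at that day.

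NMDA receptors admit calcium and need GluN1, encoded by Grin1, in every channel, joined by GluN2 subunits that bind glutamate and by GluN3 subunits that reduce calcium entry. At day 15 Grin1 was at 0.462 and 0.601 FPKM in libraries labelled Hira-null, against 1.09 and 0.956 FPKM in WT, a difference that did not pass the test (log2 fold change of −0.40 with a standard error of 0.15, adjusted p = 0.0676) but did with a pseudocount of 0.1 (0.0263). At day 0 it was the only NMDA gene above FPKM 1, with 9.59 and 10.3 FPKM in Hira-null, against 3.39 and 3.93 FPKM in WT (log2 fold change of 1.23 with a standard error of 0.15, adjusted p = 3.59e-04). Day 15 minus day 0, its log2 difference was −2.84 in the Hira-null line (adjusted p = 4.19e-07) and −1.20 in WT (adjusted p = 1.06e-04). Both libraries labelled Hira-null lay below both WT libraries at day 15, and both Hira-null libraries above them at day 0. The obligatory subunit thus had a lower level at day 15 than at day 0 in both lines, while Grin3a had a higher one. Exons of Grin1 overlap E130003G02Rik on the other strand.

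The promoter window of Grin1, at chr2:25319138-25319437 of GRCm38.p6 on the minus strand, is shown beside that of Gria2 because the 2 genes moved in opposite directions with time. CG dinucleotides are in capitals.
Grin1: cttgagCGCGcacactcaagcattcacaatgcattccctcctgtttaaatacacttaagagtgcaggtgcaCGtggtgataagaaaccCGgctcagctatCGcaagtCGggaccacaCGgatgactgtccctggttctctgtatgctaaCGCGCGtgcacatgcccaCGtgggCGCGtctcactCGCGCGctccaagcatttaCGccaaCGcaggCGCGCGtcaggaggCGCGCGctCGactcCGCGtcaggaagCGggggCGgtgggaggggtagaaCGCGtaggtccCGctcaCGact
The window held 33 CG dinucleotides and the letters GGGCGG, and the RE1 core letters were not in it. They were also missing from the windows of Gabra2, Gabrb2 and Grik2. Like Gria2, these genes were nearly absent from undifferentiated cells and rose with time in the Hira-null line. Only 0.0944% of all windows and 3.28% of those of members held the letters, so a window without them tells little. Sequence more than 50 bases past an annotated start was not searched. Whether REST has a part in any of these changes was not tested.

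Grin3a, the GluN3A subunit of young neurons, was at 5.17 and 5.37 FPKM in libraries labelled Hira-null, against 0.853 and 0.908 FPKM in WT at day 15 (log2 fold change of 1.74 with a standard error of 0.16, adjusted p = 1.08e-04), and at 0.0705 FPKM or less in every day 0 library. Grin2b, the main GluN2 subunit of embryonic brain, was at 1.32 and 1.06 FPKM in libraries labelled Hira-null, against 0.311 and 0.216 FPKM in WT at day 15 (log2 fold change of 0.79 with a standard error of 0.16, adjusted p = 0.00589), and the call was lost without WT replicate 2 of day 15 (0.0581). Exons of Grin2b overlap 3 transcript models on the other strand, and those of Grin2c, Grin3b and Gabra5 1 each. For both genes the groups of day 15 did not overlap, and Grin2b stayed at 0.0905 FPKM or less at day 0. Grin2d, also an early subunit, was at 1.77 and 1.87 FPKM in libraries labelled Hira-null, against 0.993 and 1.36 FPKM in WT at day 15, which did not pass the test (log2 fold change of 0.38 with a standard error of 0.18, adjusted p = 0.141). Grin2a, whose level rises after birth in brain, was at 0.697 and 0.978 FPKM in libraries labelled Hira-null, against 0.282 and 0.246 FPKM in WT (without the filter, log2 fold change of 0.54 with a standard error of 0.11, adjusted p = 0.008904). Grin2c, known from cerebellum, was at 0.688 and 0.794 FPKM in libraries labelled Hira-null, against 0.911 and 0.488 FPKM in WT at day 15, with overlapping groups. At day 0 it was at 0.803 and 0.953 FPKM in Hira-null, against 0.278 and 0.0967 FPKM in WT, and higher in the fit without the filter (log2 fold change of 0.66 with a standard error of 0.15, adjusted p = 0.0138), where 16.2% of all genes were higher and 14.8% lower. Grin3b stayed at 0.206 FPKM or less. Of summed NMDA FPKM, Grin3a took 50.2 and 49.99% in libraries labelled Hira-null, against 19.1 and 21.5% in WT, at day 15, and Grin1 took 4.49 and 5.59%, against 24.4 and 22.6% in WT.

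The delta receptors hold synapses together by binding cerebellins. Grid1 was at 2.42 and 2.76 FPKM in libraries labelled Hira-null, against 1.36 and 0.772 FPKM in WT at day 15 (log2 fold change of 0.81 with a standard error of 0.20, adjusted p = 0.0118), a call lost without labelled Hira-null replicate 2 of day 15 (0.0529) or WT replicate 2 of day 15 (0.106). It was at 0.255 and 0.498 FPKM in Hira-null, against 0.357 and 0.276 FPKM in WT at day 0, and its rise with time in WT (log2 fold change of 0.64 with adjusted p = 0.0161) was lost without WT replicate 1 of day 15 (0.119) or WT replicate 2 of day 0 (0.0586). Cbln1, a cerebellin that joins delta receptors to the presynaptic side, was at 34.9 and 33.3 FPKM in libraries labelled Hira-null, against 4.23 and 4.495 FPKM in WT, at day 15 (log2 fold change of 2.71 with adjusted p = 7.68e-06), named here after its value was seen.

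Metabotropic glutamate receptors act through G proteins, and some, among them Grm5, raise calcium while the others lower cyclic AMP. All 8 genes were low. Grm4 was at 1.204 and 1.08 FPKM in libraries labelled Hira-null, against 0.509 and 0.273 FPKM in WT at day 15 (log2 fold change of 0.63 with a standard error of 0.20, adjusted p = 0.0338), a call lost without labelled Hira-null replicate 1 of day 15 (0.0874), labelled Hira-null replicate 2 of day 15 (0.0602), WT replicate 1 of day 15 (0.08304) or WT replicate 2 of day 15 (0.207), and with a pseudocount of 0.1 (0.0506). Grm2 was at 0.304 and 0.285 FPKM in libraries labelled Hira-null, against 0.319 and 0.231 FPKM in WT at day 15, with overlapping groups. At day 0 Grm2 was at 1.36 and 1.03 FPKM in Hira-null, against 0.613 and 0.356 FPKM in WT (log2 fold change of 0.56 with a standard error of 0.17, adjusted p = 0.0289), a call lost without Hira-null replicate 1 of day 0 (0.179), Hira-null replicate 2 of day 0 (0.0611) or WT replicate 2 of day 0 (0.1301), and with a pseudocount of 0.1 (0.0656) or with voom without the filter (0.0514). Among those under the filter, Grm8 was at 0.885 and 0.686 FPKM in libraries labelled Hira-null, against 0.0866 and 0.0928 FPKM in WT, at day 15 (without the filter, log2 fold change of 0.71 with a standard error of 0.093, adjusted p = 0.00158), and its exons overlap Mir592 on the same strand. Grm3 was at 0.762 and 0.654 FPKM in libraries labelled Hira-null, against 0.1201 and 0.0241 FPKM in WT (log2 fold change of 0.67 with a standard error of 0.092, adjusted p = 0.00191). Grm7 was at 0.832 and 0.603 FPKM in libraries labelled Hira-null, against 0.305 and 0.286 FPKM in WT (log2 fold change of 0.40 with a standard error of 0.098, adjusted p = 0.0193), and its exons overlap a transcript on the other strand. None of these 3 exceeded 0.0412 FPKM at day 0. Grm6, the receptor of retinal bipolar cells, reached 0.437 FPKM in replicate 2 of the libraries labelled Hira-null and 0.157 FPKM in any other library, and Grm5 stayed at 0.111 FPKM or less.

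Nicotinic receptors of brain are mainly built from Chrna4 and Chrnb2 or from Chrna7 alone. Chrna4 was at 7.49 and 7.65 FPKM in libraries labelled Hira-null, against 3.35 and 2.06 FPKM in WT at day 15 (log2 fold change of 1.23 with a standard error of 0.22, adjusted p = 0.00309), a call lost without WT replicate 2 of day 15 (0.05497). In stem cells at day 0 it was at 1.74 and 1.03 FPKM in Hira-null, against 1.01 and 0.694 FPKM in WT, and its rise with time in WT (log2 fold change of 0.98 with adjusted p = 0.00344) was lost without WT replicate 1 of day 15 (0.0514). Chrnb2, its partner, was at 2.29 and 2.67 FPKM in libraries labelled Hira-null, against 1.24 and 0.983 FPKM in WT at day 15 with no overlap, but the difference did not pass the test (log2 fold change of 0.72 with a standard error of 0.26, adjusted p = 0.0537). It did pass with voom (0.00444) or with voom without the filter (0.0153), and without either Hira-null library of day 0 (adjusted p = 0.0225 and 0.0218 without replicates 1 and 2). Its rise with time in the Hira-null line (log2 fold change of 0.90 with adjusted p = 0.0101) was lost without Hira-null replicate 2 of day 0 (0.0768). Chrna7 was at 1.66 and 3.02 FPKM in libraries labelled Hira-null, against 2.64 and 2.04 FPKM in WT, at day 15. In undifferentiated cells the levels were 3.55 and 3.32 FPKM in Hira-null, against 3.96 and 2.49 FPKM in WT. No comparison of Chrna7 passed the test, and its genotype groups overlapped at both days, with log2 fold changes of −0.025 (standard error 0.24) at day 15 and 0.091 (standard error 0.24) at day 0.

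The genes of ganglionic and muscle receptors gave another picture. Chrnb4, the beta subunit of ganglia, was at 0.193 and 0.241 FPKM in libraries labelled Hira-null, against 0.579 and 0.318 FPKM in WT, at day 15, which did not pass the test (log2 fold change of −0.25 with a standard error of 0.17, adjusted p = 0.285). At day 0 it was at 2.34 and 2.32 FPKM in Hira-null, against 0.7795 and 0.917 FPKM in WT (log2 fold change of 0.85 with a standard error of 0.16, adjusted p = 0.00359). Chrna3, its ganglionic partner, had no fragment at day 0 and 0.288 and 0.404 FPKM in libraries labelled Hira-null, against 0.408 and 0.164 FPKM in WT, at day 15, with overlapping groups. Chrna5, an accessory subunit, ranged from 0.116 to 0.992 FPKM over all libraries with overlapping groups.

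Chrnb1, the beta subunit of the muscle receptor, was at 5.12 and 4.498 FPKM in libraries labelled Hira-null, against 3.56 and 2.46 FPKM in WT, at day 15. Its day 0 levels were 3.46 and 3.23 FPKM in Hira-null, against 1.64 and 2.31 FPKM in WT. It was higher at day 15 (log2 fold change of 0.55 with a standard error of 0.19, adjusted p = 0.0496) and at day 0 (log2 fold change of 0.55 with a standard error of 0.18, adjusted p = 0.0399). The day 15 call was lost without labelled Hira-null replicate 1 of day 15 (0.165), labelled Hira-null replicate 2 of day 15 (0.0817), WT replicate 1 of day 15 (0.07499), WT replicate 2 of day 15 (0.347), Hira-null replicate 1 of day 0 (0.0599) or Hira-null replicate 2 of day 0 (0.0598), and with a pseudocount of 0.1 (0.0682), without the filter (0.07702) or with voom without the filter (0.0652), and the day 0 call without labelled Hira-null replicate 1 of day 15 (0.0635), labelled Hira-null replicate 2 of day 15 (0.0633), Hira-null replicate 1 of day 0 (0.164), Hira-null replicate 2 of day 0 (0.115) or WT replicate 1 of day 0 (0.169), and with a pseudocount of 0.1 (0.0518), without the filter (0.0632), with voom (0.0987) or with voom without the filter (0.123). Chrna1, the muscle alpha subunit, had 0 fragments in libraries labelled Hira-null and 10 and 17 in WT at day 15, at least 7.85-fold lower, and was lower in the fit without the filter (log2 fold change of −0.37 with a standard error of 0.095, adjusted p = 0.0243). Further muscle subunits outside the naming rule, named after their values were seen, were Chrnd with 0 and 0 FPKM in libraries labelled Hira-null, against 0.107 and 0.202 FPKM in WT, and Chrng with 0 and 0 FPKM in libraries labelled Hira-null, against 0.221 and 0.267 FPKM in WT, at day 15, with no test at these levels. All 6 skeletal muscle markers tested were lower in libraries labelled Hira-null at day 15, with summed levels of 3.32 and 4.66 FPKM, against 17.1 and 18.6 FPKM in WT, and their part in the Chrna1 result was not tested.

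Chrna9, an alpha subunit of cochlear hair cells, was at 0.953 and 0.525 FPKM in libraries labelled Hira-null, against 0.477 and 0.426 FPKM in WT, at day 15 (log2 fold change of 0.25 with a standard error of 0.20, adjusted p = 0.351). At day 0 it was the 1 gene of the 27 below WT, with 1.82 and 1.19 FPKM in Hira-null, against 3.46 and 3.78 FPKM in WT (log2 fold change of −0.89 with a standard error of 0.19, adjusted p = 0.00583), a call lost without Hira-null replicate 2 of day 0 (0.05498). It was lower at day 15 than at day 0 in WT (log2 fold change of −1.67 with adjusted p = 6.29e-05) and in the Hira-null line (log2 fold change of −0.53 with adjusted p = 0.0333), the second call being lost without labelled Hira-null replicate 2 of day 15 (0.176), WT replicate 1 of day 15 (0.0544), WT replicate 2 of day 15 (0.0544) or Hira-null replicate 1 of day 0 (0.212), and with voom (0.111) or with voom without the filter (0.113). Its usual partner Chrna10 reached 0.181 FPKM. Chrna2 and Chrna6 were above 0 in 1 library each, at 0.0385 and 0.0587 FPKM, and Chrnb3 was listed at 0 throughout.

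Of the 14 serotonin receptor genes, Htr1b alone passed the filter. Htr1b, which limits transmitter release at nerve endings, was at 2.03 and 1.36 FPKM in libraries labelled Hira-null, against 2.103 and 2.35 FPKM in WT, at day 15. The levels at day 0 were 0.502 and 0.392 FPKM in Hira-null, against 0.234 and 0.204 FPKM in WT, and it had from 2 to 32 fragments a library. It was higher at day 15 than at day 0 in the Hira-null line (log2 fold change of 0.89 with adjusted p = 0.00155) and in WT (log2 fold change of 1.40 with adjusted p = 1.06e-04), and no genotype difference was detected (adjusted p = 0.268 at day 15 and 0.298 at day 0). Exons of Htr1b overlap D430036J16Rik on the other strand. Htr3a, the channel subunit, was at 0.0539 and 0.353 FPKM in libraries labelled Hira-null, against 0.357 and 0.492 FPKM in WT, at day 15, and at 0.839 and 0.492 FPKM in Hira-null, against 0.718 and 0.568 FPKM in WT, at day 0. In the Hira-null line it was lower at day 15 in the fit without the filter (log2 fold change of −0.47 with a standard error of 0.16, adjusted p = 0.0358). Htr1d was at 0.0909 and 0 FPKM in Hira-null, against 0.636 and 0.628 FPKM in WT, at day 0, and lower in Hira-null in the fit without the filter (log2 fold change of −0.64 with a standard error of 0.14, adjusted p = 0.0104). At day 15 Htr1d reached 0.266 FPKM at most. Htr2b, which acts in heart development, was in no day 0 library and at 0.325 and 0.152 FPKM in libraries labelled Hira-null, against 0.512 and 0.165 FPKM in WT at day 15, and its exons overlap Psmd1 on the other strand. Htr6 reached 1.09 FPKM in replicate 2 of Hira-null at day 0 and Htr5b 0.473 FPKM in replicate 2 of WT at day 0, with wide spread within groups. Htr1a, Htr2a, Htr2c, Htr4 and Htr7 stayed at 0.189 FPKM or less and Htr1f and Htr3b were listed at 0.

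Over the 35 members under the filter that the fit without it tested, 9 were higher and 2 lower at day 15 than at day 0 in the Hira-null line, where that fit called 32.4% of all genes higher and 30.2% lower. In WT 11 were higher and 2 lower, beside 30.8% and 26.4% of all genes. Of the 45 genes under the filter 25 reached 0.3 FPKM in some library, 13 were above 0 but under 0.3 FPKM in every library, and 7 were listed at 0 in all.

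The genotype difference at day 15 was set against that at day 0 in the same fit. It was higher by the test for 8 of the 27 genes, among them Gabra2, Gabrb2, Grik1, Grik2, Grin2b, Grin3a and Chrna9, and lower for Gabra3, Grik5, Grin1 and Chrnb4, where 17.5% of all genes tested were higher and 17.7% lower. Gabra2 led the first group (2.13, standard error 0.25, adjusted p = 6.38e-04) and Grin1 the second (−1.64, standard error 0.21, adjusted p = 9.08e-04). With the filter applied again the 8 became 4 and 5 of 22 genes without replicates 1 and 2 of libraries labelled Hira-null, beside 14.2% and 15.2% of all genes, and the 4 became 2 of 25 without replicate 1 of WT at day 15, beside 10.2% of all genes. The 4 of 22 lie near the share of all genes. With all 27 genes kept, 6 to 9 were higher and 3 to 4 lower, beside 9.92 to 15.9% and 10.3 to 16.8% of all genes. With voom on whole fragments, which weighs low genes differently, the difference of Gabrb2 was not past the test (adjusted p = 0.911), nor were those of Grik1 (0.755) and Grik2 (0.257), all genes near 0 at day 0. Over the 27 genes the median of this difference was 0.38, beside 0.017 over all genes tested.

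Genes that act with these receptors were counted in fixed lists, to be read beside 18.6% of all genes tested higher and 18.8% lower at day 15, and 20.8% higher and 19.4% lower at day 0. Of 31 scaffold and auxiliary genes tested, 15 were above and 3 below WT in libraries labelled Hira-null at day 15 (median log2 fold change 0.44). At day 0, 8 were higher and 4 lower in Hira-null. By level the first of them, Gabarap, which links GABA-A receptors to transport vesicles, was lower at 88.7 and 88.7 FPKM in libraries labelled Hira-null, against 148 and 149 FPKM in WT (log2 fold change of −0.74 with adjusted p = 2.89e-04). Of 23 transmitter synthesis and transport genes, 11 were higher and 4 lower at day 15 (median 0.33), and 4 higher and 3 lower at day 0. Slc1a3, the glutamate uptake carrier of radial glia and astrocytes, was at 34.6 and 33.9 FPKM in libraries labelled Hira-null, against 8.93 and 9.52 FPKM in WT (log2 fold change of 1.79 with adjusted p = 1.02e-04). Of 4 receptor subunits outside the naming rule, Gabrp was lower at day 15 and no gene was higher, and Gabrp and Gabbr1 were higher in Hira-null at day 0. The GABA-B receptor subunit Gabbr1 was at 17.9 and 15.5 FPKM in libraries labelled Hira-null, against 13.9 and 14.3 FPKM in WT at day 15, above every gene under the naming rule except Grik5.

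Markers of other cells were counted likewise, against the same shares of all genes. Of 15 neuron markers 13 were above WT in libraries labelled Hira-null and none below it (median log2 fold change 1.09), with summed levels of 356 and 376 FPKM, against 167 and 166 FPKM in WT. Of 7 neural progenitor markers 4 were higher and none lower, with 423 and 422 FPKM, against 169 and 163 FPKM in WT. Tubb3, the neuronal tubulin, was at 107 and 118 FPKM in libraries labelled Hira-null, against 56.9 and 52.5 FPKM in WT, and Fabp7 of radial glia at 218 and 180.2 FPKM, against 46.3 and 40.1 FPKM. Their part in the receptor results was not tested. At day 0 the neuron markers summed to 266 and 275 FPKM in Hira-null and 247 and 260.4 FPKM in WT (4 higher and 3 lower). Stmn2, a neuronal tubulin-binding protein, was at 182 and 188 FPKM in Hira-null, against 146 and 145 FPKM in WT, at day 0. Of 6 glia markers 2 were higher and 1 lower at day 15 (Olig2 at 3.82 and 5.26 FPKM in libraries labelled Hira-null, against 1.26 and 0.3502 FPKM in WT, and S100b at 0 in all libraries). The higher glia genes were Olig1 and Olig2 of the oligodendrocyte lineage, and the lower one was Sox10 of neural crest and oligodendrocytes, at 0.0827 and 0.116 FPKM in libraries labelled Hira-null, against 1.17 and 1.64 FPKM in WT (log2 fold change of −1.12 with adjusted p = 0.00203). Of 5 autonomic neuron markers 2 were higher and 2 lower. Skeletal muscle markers were lower for 6 of 6 (Myf6 at 0 in all libraries), cardiomyocyte markers higher for 2 and lower for 4 of 12, endothelium markers lower for 4 of 6, and stem cell markers higher for 3 and lower for 3 of 6.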

How the data were processed

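Messenger RNA of 8 libraries was analysed, 2 for each of 2 genotypes at day 0 and day 15. Libraries were stranded and sequenced from both ends. Reads were mapped to mm9 with Bowtie (0.12.2), and FPKM per gene were deposited by the authors. The counting tool, the annotation and the use of strand are not given in the sources used here. The authors also deposited tables of their DESeq2 (1.6.3) comparisons, with mean normalized counts, fold changes, p-values and adjusted p-values, which were not used. The deposited FPKM were scaled to library denominators that differ from the fragments in genes by factors of 0.946 to 1.04, close to median-ratio size factors. The genes were chosen by name, and the members, gene lists and tests were chosen with earlier results of these data known. Genes past the filter were named with values of every library, those under it where a library reached 0.3 FPKM, and list genes by level. Genes at FPKM 1 or more in 2 of 8 libraries (14337) were taken as log2(FPKM + 1), and a mean for each of the 4 groups was fitted in limma (3.58.1, under R 4.3.3) with weights per day (1.03 at day 0, 0.968 at day 15), eBayes with trend, two-sided tests and Benjamini-Hochberg adjustment over all genes at 0.05, with 4 residual and 4.70 prior degrees of freedom. The script was tested on simulated data. A few genes entered all fits and counts but are not reported here. The p-values measure the spread between 2 samples a group. Replicates differed by more than counting noise (chi-square per degree of freedom 2.89 to 5.93). Alternatives were a pseudocount of 0.1, no filter (genes above 0 in 2 libraries), median-ratio rescaling, a replicate block, voom on whole fragments recovered from the FPKM steps, leaving out each library, and, added after seeing the data, voom without the filter and leaving out libraries with the tested genes kept. Gene positions are those of the NCBIM37 annotation, found for all 72 genes, and promoter windows those of RefSeq on GRCm38.p6.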

Additional observations from a re-analysis of the deposited data

Results flagged for a closer look

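For 11 of the receptor genes reported here the genotype difference on the log2(FPKM + 1) scale was not the same at day 15 as at day 0 (limma, interaction of genotype and day). By this test 17.5% of all genes were higher and 17.7% lower. Of the 27 members 29.6% were higher and 14.8% lower, so the lower share was under that of all genes. Higher at day 15 were those of Gabra2 2.13 (standard error 0.25, adjusted p = 6.38e-04), Grin3a 1.76 (standard error 0.22, adjusted p = 7.34e-04) and Grik2 1.46 (standard error 0.27, adjusted p = 0.00416). Those of Grik1 1.12 (standard error 0.22, adjusted p = 0.00557), Gabrb2 1.04 (standard error 0.26, adjusted p = 0.0146) and Grin2b 0.81 (standard error 0.23, adjusted p = 0.0256) were also higher. Gabra2, Gabrb2, Grik1, Grik2, Grin2b and Grin3a were near 0 in both genotypes at day 0, so that this value repeats their day 15 difference. Chrna9 had a value of 1.14 (standard error 0.27, adjusted p = 0.0125), with a call below WT at day 0 and none at day 15. Lower at day 15 were the differences of Grin1 −1.64 (standard error 0.21, adjusted p = 9.08e-04), Chrnb4 −1.10 (standard error 0.23, adjusted p = 0.00779), Gabra3 −1.05 (standard error 0.23, adjusted p = 0.00929) and Grik5 −0.81 (standard error 0.18, adjusted p = 0.0102). Gabra3 too was near 0 in both genotypes at day 0, so that its value repeats its day 15 difference. The values of Gabra2, Grin1, Grin3a and Chrnb4 stayed past the test under every alternative in which they were tested, and those of the other 7 did not under at least 1. With the filter applied again, Gabra2 and Grin3a were not tested without a library labelled Hira-null of day 15. Chrnb4 was not tested without a Hira-null library of day 0. The value of Grik5 was lost without WT replicate 1 of day 15 (0.0617) or WT replicate 2 of day 15 (0.0511), and that of Chrna9 without WT replicate 1 of day 15 (0.05103) or WT replicate 2 of day 15 (0.0538), and with voom (0.0619) or with voom without the filter (0.0702), with the adjusted p then reached in brackets. That of Gabrb2 was lost without WT replicate 1 of day 15 (0.0638) or Hira-null replicate 2 of day 0 (0.0509), and with a pseudocount of 0.1 (0.205), with voom (0.911) or with voom without the filter (0.923). That of Grin2b was lost without WT replicate 1 of day 15 (0.0615), WT replicate 2 of day 15 (0.0573), Hira-null replicate 1 of day 0 (0.0742), Hira-null replicate 2 of day 0 (0.0665), WT replicate 1 of day 0 (0.0569) or WT replicate 2 of day 0 (0.05004), and with a pseudocount of 0.1 (0.0665), with voom (0.0561) or with voom without the filter (0.0511). Those of Gabra3, Grik1 and Grik2 were lost with a pseudocount of 0.1 (0.0506) or with voom (0.0699) for Gabra3, with a pseudocount of 0.1 (0.09097), with voom (0.755) or with voom without the filter (0.714) for Grik1, and with a pseudocount of 0.1 (0.0731), with voom (0.257) or with voom without the filter (0.2802) for Grik2.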

How the results depend on the processing

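No result turned round under any alternative. Counts that moved by more than 1.5 times are given here, each with the percentage of all genes called in the same fit in brackets, and the cause was not tested except that fits without the filter test 62 members in place of 27. Without the filter, 5 genes (14.6%) were lower at day 15 between genotypes and 2 (14.8%) at day 0, 28 (32.4%) were higher with time in the Hira-null line, and 24 (30.8%) were higher and 5 (26.4%) lower with time in WT. With voom on recovered fragments without the filter, 5 (15.5%) were lower at day 15 between genotypes and 4 (16.1%) at day 0, 34 (33.2%) were higher and 8 (30.7%) lower with time in the Hira-null line, 31 (32.7%) were higher and 6 (27.4%) lower in WT, and 4 (12.2%) had a higher genotype difference at day 15 than at day 0. With voom and the filter 2 (21.5%) were lower at day 0 and 4 (16.9%) had a higher difference at day 15, as had 4 (14.7%) with a pseudocount of 0.1. Leaving out 1 library at a time and applying the filter again, 5 to 14 (9.1 to 18.8%) were higher and 0 to 2 (8.46 to 18.8%) lower at day 15 between genotypes, 3 to 6 (12.8 to 20.5%) higher and 0 to 1 (13.1 to 19.7%) lower at day 0, 13 to 18 (34.1 to 38.2%) higher and 2 to 5 (32.5 to 36.9%) lower with time in the Hira-null line, and 10 to 15 (29.5 to 36.2%) higher and 3 (28.5 to 34.6%) lower in WT. The genotype difference was higher at day 15 for 4 to 8 (10.3 to 15.4%) and lower for 2 to 4 (10.2 to 17%). With all 27 members kept, 7 to 14 (8.8 to 18.6%) were higher, with 9 and 7 without replicates 1 and 2 of WT at day 15, and 1 to 2 (8.93 to 18.4%) lower at day 15, and 4 to 6 (13 to 20%) higher and 0 to 1 (12.8 to 19.2%) lower at day 0. Applying the filter again leaves 22 to 27 members tested, which by construction removes Gabra2, Grik1, Grin2b, Grin3a and Grm4 without a library labelled Hira-null of day 15, Gabra3 and Gria1 without a WT library of day 15, and Chrnb4 and Grm2 without a Hira-null library of day 0. The fits that kept all 27 were chosen after seeing the data. Deviations of replicates with the same number were hardly correlated between groups (−0.097 to 0.046). Such correlations cannot show whether samples of different groups came from the same experiment. With the replicate block 12 genes (16.2%) were higher and 1 (16.4%) lower at day 15. Median-ratio rescaling by factors of 0.973 to 1.05 left 26 members in the test and ended no call among them. Of 135 comparisons of single genes, not all of them calls in the main fit, a call was lost in 12 with the lower pseudocount, 5 without the filter, 5 with the block and 8 with voom. A call was gained in 1 with the lower pseudocount, 1 without the filter, 2 with the block, 9 with voom and 4 with median-ratio rescaling. Genes at a few fragments allow no statement on a lack of difference.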

Other observations

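By level at day 15, the order of the members began with Grik5 and Gria3 in both genotypes. Chrnb4 and Grm2 were lower at day 15 than at day 0 in the Hira-null line (log2 fold change −1.45 and −0.76, adjusted p = 4.57e-05 and 0.00364), and in WT the difference did not pass the test (log2 fold change −0.36 and −0.21, adjusted p = 0.0825 and 0.298). Genes of transmitter supply were also present at day 0, where Slc17a7, the vesicular glutamate carrier, was at 10.1 and 9.72 FPKM in Hira-null, against 3.33 and 3.02 FPKM in WT, named after its values were seen. It does not stand for its list, of which 4 of 23 genes tested were higher and 3 lower in Hira-null at day 0. The listed genes summed to 170 and 158 FPKM in Hira-null, against 229 and 238 FPKM in WT.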
